A study of Rattus norvegicus with 10 samples.

Results

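The loci of 3 rat genes were examined for methylated DNA captured from the hippocampus, those of Nptx2 on chromosome 12, Dusp4 on chromosome 16 and Plk2 on chromosome 2. The study lists each gene with 1 differentially methylated region. Its list holds genes whose mRNA also differed in the same epilepsy model, and it reports all 3 as upregulated. Every counted region that overlapped the stretch from 100 kb before to 100 kb after the listed region was taken as a member. This gave 102 regions around Nptx2, 81 around Dusp4 and 47 around Plk2, 230 of the 574544 regions in the table of the rat genome RN4. The study chose the 3 listed regions by the contrast of SE and control rats in these libraries, so their difference is given below as a description, and the comparisons concern the other 227 regions. The amygdala stimulation model was used, in which electrical pulses through an electrode in the left lateral amygdala evoke status epilepticus (SE). All rats were male Sprague-Dawley rats of 290 to 320 g that carried the electrodes. The SE group was stimulated for 30 min, or longer where SE had not begun, and later given diazepam to stop it, whereas the control group was sham operated, matched for age and not stimulated. By the study's account every stimulated rat it enrolled had spontaneous seizures, looked for by video EEG over the final 2 weeks. Tissue holding CA3 and dentate gyrus of the left hippocampus, labelled dorsal hippocampus, was taken 3 months after SE, with 1 library per rat. Control rats 1, 3, 4 and 5 and SE rats 6, 8, 9 and 10 were compared, since 2 further libraries, from control rat 2 and SE rat 7, carry the label discarded. The tissue is a mixture of cell types, so that a change in methylation within a cell type and a change in the share of cell types cannot be told apart, and no expression marker was measured in these libraries.

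All 3 genes are known from neurons as genes whose transcription follows activity. Nptx2 encodes neuronal pentraxin 2, also called Narp, a secreted protein that gathers AMPA-type glutamate receptors at excitatory synapses. Plk2 encodes polo-like kinase 2, also called Snk, which is induced by sustained activity and takes part in the weakening of synapses. Dusp4 encodes a nuclear phosphatase, also called MKP-2, that removes phosphate from MAP kinases and so closes a feedback loop on the signalling that induces it. In methyl-capture, DNA fragments are bound through a protein domain that recognises methylated CpG sites, and a higher tag count stands for more captured methylated DNA. The count depends on how many CpG sites a fragment carries, and it does not give the methylation of a single cytosine.

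Since capture acts on CpG sites, the 250 bases before the transcription start are shown for the genes with an entry in the RefSeq promoter table (assembly GRCr8), in which 2 of the 3 genes matched. Each CpG is in capitals. The Nptx2 sequence lies on the minus strand at chr12:15162046-15162295, and the Plk2 sequence on the plus strand at chr2:43702286-43702535.
Nptx2: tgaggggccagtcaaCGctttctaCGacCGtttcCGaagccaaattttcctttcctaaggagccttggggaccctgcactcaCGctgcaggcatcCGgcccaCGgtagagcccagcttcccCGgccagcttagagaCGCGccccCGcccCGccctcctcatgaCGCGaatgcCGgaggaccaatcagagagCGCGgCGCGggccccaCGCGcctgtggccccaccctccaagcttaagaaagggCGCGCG
Plk2: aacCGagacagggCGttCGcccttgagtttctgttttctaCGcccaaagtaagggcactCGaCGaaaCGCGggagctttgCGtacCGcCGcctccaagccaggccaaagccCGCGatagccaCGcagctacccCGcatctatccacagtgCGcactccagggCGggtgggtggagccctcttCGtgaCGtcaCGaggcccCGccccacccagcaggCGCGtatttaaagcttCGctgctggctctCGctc
The Nptx2 stretch holds 24 CpG sites and the Plk2 stretch 25, where the median of 33469 promoters of that length was 5. Fewer CpG sites than in Nptx2 were found in 89.1% of these promoters, and fewer than in Plk2 in 90.3%. The Plk2 promoter contains the palindrome TGACGTCA, the cyclic AMP response element, with a CpG at its centre, as do 1.59% of the promoters. The Nptx2 promoter contains only the shorter motif TGACG, which overlaps the former and occurs on either strand in 18.2% of them. The captured regions are given in RN4, and since the builds differ, their distance to these promoters was not determined. The study assigns the listed region of Plk2 to its promoter, by which it means the 5 kb before the start. That is a wider stretch than the 250 bases shown, and whether the region overlaps these bases was not determined. It assigns the listed region of Nptx2 to exon, intron and 3′ UTR, and that of Dusp4 to exon, intron and a CpG island.

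In the regions of the table, the 8 libraries compared held between 5499370 and 7179519 tags. Library totals here are these sums, since tags outside the regions of the table are not given. Of the 230 regions, 111 passed the filter on low counts, which removed regions with fewer than 70 tags summed over the 8 libraries. The other 119 regions held between 0 and 20 tags per library. The tested regions outside the listed ones resembled the whole table in tag number and in capture per length. Their median was 12.3 tags per library against 12.1, and 4.72 CPM per kb of region against 4.82. By stretch the median was 14.2 tags at Nptx2, 12.1 at Dusp4 and 10.1 at Plk2. These tested regions lay more densely than the whole table, with a median of 44 other regions within 50 kb against 33. CPM are counts per 1000000 tags, with library sizes taken over the tested regions and scaled by the TMM method of edgeR. The table holds only regions in which some pair of the study's samples differed when regions were called, so it is not a survey of all methylated DNA in these stretches. SE rat 7 stood apart from the other 9 libraries. Relative to its library total it had the highest value of all 10 libraries in 57 of the 230 regions and the lowest in 32, and it held 0 tags in 13 regions in which the 8 rats compared had means between 7.88 and 20.1 tags. Control rat 2 was highest in 32 and lowest in 44 regions, and each of the other 8 rats was highest in 14 to 23. The changes of the listed regions and the numbers of regions higher or lower are therefore also given with all 10 libraries. Many other values are given only without these 2 rats.

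At Nptx2 the listed region runs from 10359150 to 10360109 on chromosome 12 and is 959 bp long. Control rats 1, 3, 4 and 5 had 17, 15, 13 and 10 tags in it, and SE rats 6, 8, 9 and 10 had 21, 32, 33 and 27. In CPM the control rats lay between 2.07 and 4.11 and the SE rats between 4.86 and 7.97, so that the groups did not overlap. Of all tested regions, 3.63% did not overlap in either direction and 1.65% had an unadjusted p below 0.01, the threshold used here for a call. These were 0.584% higher and 1.07% lower in SE rats, and an adjusted p below 0.05 was reached by 0.00616%. The gene list that the 3 regions come from was cut more strictly, at an unadjusted p below 0.001, which 0.204% of all tested regions reached here, among them 1 of the 3 listed regions, that of Nptx2, and 0 of the 108 other tested regions of the stretches (edgeR quasi-likelihood test). Within the SE group rats 8 and 9 lay above rats 6 and 10. The means were 3.31 ± 0.884 (SD, n = 4) in the control group and 6.42 ± 1.64 (SD, n = 4) in the SE group. The log2 fold change was 0.95 (standard error 0.28), and the p by which such regions were ranked was 0.000865, with a Benjamini-Hochberg value of 0.484 among the 291987 regions tested (edgeR quasi-likelihood test). It stood at rank 521 of these regions. Control rat 2, with 5.29 CPM, fell among the SE rats, and SE rat 7, with 1.18 CPM, fell below all control rats. With all 10 libraries the log2 fold change was 0.48 (standard error 0.44, unadjusted p = 0.3004 in the same edgeR test).

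**Figure D1:**
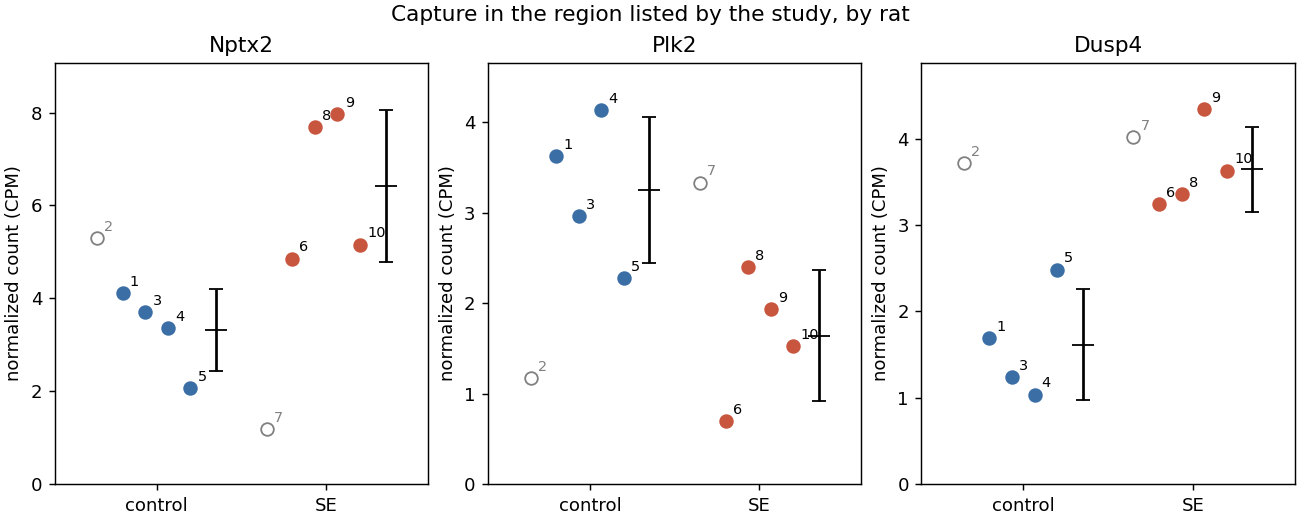
Normalized count (CPM, vertical axis) of each rat in the region that the study lists for each gene, with rat numbers beside the points, the mean and SD of the 4 rats as a bar, and the rats labelled discarded as open circles. The SE rats lie above the control rats for Nptx2 and Dusp4 and mostly below them for Plk2, while open circles of both groups fall on the other group's side for Nptx2 and Plk2.

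The tested regions on either side of it had values of the opposite sign, neither of which passed the threshold. The next region starts 109 bp further along the chromosome, from 10360218 to 10361276. There control rats 1, 3, 4 and 5 had 21, 15, 19 and 45 tags and SE rats 6, 8, 9 and 10 had 11, 23, 19 and 26. Each control rat had at least as many tags here as in the listed region, and each SE rat had fewer. The lengths differ (1058 and 959 bp) and the listed region was chosen by this contrast, so this difference is only a description. Control rat 5, the lowest rat in the listed region, was the highest in this neighbour, and the groups overlapped. The log2 fold change was -0.41 (standard error 0.27, unadjusted p = 0.138, edgeR quasi-likelihood test). On the other side the next tested region, 4428 bp away from 10353940 to 10354722, had 16, 12, 25 and 21 tags in the control rats and 4, 6, 18 and 27 in the SE rats in the same order. SE rats 6 and 8 lay below all control rats and SE rats 9 and 10 among them, and the log2 fold change was -0.53 (standard error 0.33, unadjusted p = 0.116 in the same edgeR test).

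Across the rest of the Nptx2 stretch, 24 of 52 tested regions had a higher and 28 a lower value in SE rats, with a median log2 fold change of -0.05. Over the remainder of chromosome 12 the median was 0.10 and 62.3% of 9797 tested regions were higher in SE rats, a difference between stretch and chromosome that was not tested. The largest number of tags was held by the region from 10405433 to 10406774, with 5.66 ± 1.22 CPM (SD, n = 4) in the control group and 6.08 ± 2.17 (SD, n = 4) in the SE group (log2 fold change 0.09, standard error 0.25, unadjusted p = 0.714, edgeR quasi-likelihood test). Near the far end, the region from 10452012 to 10453353 had the smallest p of those lower in SE rats. Its control values were 4.84, 3.95, 5.69 and 6.41 CPM in rats 1, 3, 4 and 5, and its SE values 2.77, 4.08, 2.90 and 3.63 CPM in rats 6, 8, 9 and 10. SE rat 8 lay just above control rat 3, and the other SE rats lay below all control rats. The log2 fold change was -0.64 (standard error 0.28, unadjusted p = 0.0254, adjusted p = 0.675 in the same edgeR test). SE rat 7 had 13.7 CPM in this region, the highest of the 10 libraries, and control rat 2 had 1.76 CPM, below all 8 rats compared. With all 10 libraries the log2 fold change was 0.25.

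At Dusp4 the listed region runs from 61110491 to 61111223 on chromosome 16, with a length of 732 bp. Control rats 1, 3, 4 and 5 had 7, 5, 4 and 12 tags, and SE rats 6, 8, 9 and 10 had 14, 14, 18 and 19. In CPM the control rats lay between 1.03 and 2.48 and the SE rats between 3.24 and 4.35. Every SE rat was above every control rat, with control rat 5 nearest to them. The means were 1.61 ± 0.642 (SD, n = 4) in the control group and 3.64 ± 0.496 (SD, n = 4) in the SE group, a log2 fold change of 1.13 (standard error 0.37). The p that ranked it was 0.00283, with an adjusted p of 0.539 in the edgeR quasi-likelihood test, at rank 1518 of the tested regions. Control rat 2 had 3.72 CPM and SE rat 7 had 4.02 CPM, both within the range of the 4 SE rats. Without control rat 3 or control rat 4 the log2 fold change was 1.02 or 0.97, and p no longer fell below the threshold. With all 10 libraries the log2 fold change was 0.80 (standard error 0.34, unadjusted p = 0.0346 in the same edgeR test).

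The region before it, 113 bp away from 61109381 to 61110378, held 10, 16, 21 and 18 tags in control rats 1, 3, 4 and 5 and 10, 17, 15 and 13 in SE rats 6, 8, 9 and 10. In CPM the group means were 3.88 ± 1.24 (SD, n = 4) in the control group and 3.12 ± 0.863 (SD, n = 4) in the SE group, and the ranges overlapped (log2 fold change -0.32, standard error 0.32, unadjusted p = 0.320, edgeR quasi-likelihood test). Each control rat had more tags in this neighbour than in the listed region, whereas 3 of the 4 SE rats had fewer. Here too the lengths differ (997 and 732 bp) and the listed region was chosen by this contrast. SE rat 7 had 103 tags in the neighbour, and with all 10 libraries the neighbour's log2 fold change was 0.07. The next tested region on the other side began 7964 bp away, from 61119187 to 61120256. It had 4.64 ± 1.11 CPM (SD, n = 4) in the control group and 4.72 ± 1.64 (SD, n = 4) in the SE group, at a log2 fold change of 0.01 (standard error 0.28, unadjusted p = 0.957 in the same edgeR test).

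Among the 41 other tested regions around Dusp4, 19 were higher and 22 lower in SE rats, and the median log2 fold change was -0.01, as in the remainder of chromosome 16 (-0.01 over 10435 regions). The highest tag number belonged to the region from 61130906 to 61132212, in which control rats 1, 3, 4 and 5 had 4.59, 6.18, 10.1 and 4.14 CPM and SE rats 6, 8, 9 and 10 had 6.94, 6.48, 7.48 and 8.40. Control rat 4 exceeded all SE rats there while the other control rats lay below them (log2 fold change 0.26, standard error 0.24, unadjusted p = 0.279, edgeR quasi-likelihood test). The smallest p of regions lower in SE rats belonged to one from 61019083 to 61019748, at a log2 fold change of -0.51 (standard error 0.34, unadjusted p = 0.132 in the same edgeR test). In it control rat 4 was again apart at 6.47 CPM, against 2.18 to 3.52 CPM in the other control rats and 1.69 to 3.25 CPM in the SE rats. Besides the listed region, 2 regions higher in SE rats had a smaller p than this, and they are named here after their values were seen. From 61159055 to 61159584 the log2 fold change was 0.65 (standard error 0.37, unadjusted p = 0.0868), and from 61020715 to 61021140 it was 0.69 (standard error 0.41, unadjusted p = 0.0939 in the same edgeR test). The groups overlapped in both.

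At Plk2 the listed region runs from 41796732 to 41797370 on chromosome 2 and is 638 bp long. Here the direction was the opposite. Control rats 1, 3, 4 and 5 had 15, 12, 16 and 11 tags, and SE rats 6, 8, 9 and 10 had 3, 10, 8 and 8. In CPM the values were 3.63, 2.97, 4.14 and 2.27 in the control rats and 0.694, 2.40, 1.93 and 1.53 in the SE rats. SE rat 8 lay above control rat 5, so the groups overlapped, and SE rat 6 was far below the rest. The means were 3.25 ± 0.809 (SD, n = 4) in the control group and 1.64 ± 0.724 (SD, n = 4) in the SE group, and the log2 fold change was -0.97 (standard error 0.39). With an unadjusted p of 0.0134 and an adjusted p of 0.626 in the edgeR quasi-likelihood test, it stood at rank 6253 and missed the threshold of p below 0.01. Control rat 2 had 1.17 CPM, below all control rats compared, and SE rat 7 had 3.33 CPM, above all SE rats compared. It passed the threshold without control rat 5, at -1.12, and without SE rat 8, at -1.20. With all 10 libraries the log2 fold change was -0.52 (standard error 0.42, unadjusted p = 0.237 in the same edgeR test).

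Of the 3 stretches that around Plk2 held the fewest regions, with 15 tested regions beside the listed one and a median of 25 other regions within 50 kb of a tested one, against 49 around Nptx2, 39 around Dusp4 and 33 in the whole table. The nearest tested neighbour, from 41790067 to 41790531 and 6201 bp away, had 8, 9, 13 and 7 tags in control rats 1, 3, 4 and 5 and 20, 18, 3 and 13 in SE rats 6, 8, 9 and 10. SE rats 6 and 8 were the highest and SE rat 9 the lowest of all 8, at a log2 fold change of 0.45 (standard error 0.38, unadjusted p = 0.241, edgeR quasi-likelihood test). SE rat 6 thus had the fewest tags of all in the listed region and the most in its neighbour. On the other side the region from 41805712 to 41806181, 8342 bp away, had 2.28 ± 0.501 CPM (SD, n = 4) in the control group and 2.11 ± 0.605 (SD, n = 4) in the SE group (log2 fold change -0.14, standard error 0.39, unadjusted p = 0.717 in the same edgeR test). The region with the most tags, from 41816665 to 41817362, had 4.02 ± 1.30 CPM (SD, n = 4) in the control group and 3.65 ± 1.48 (SD, n = 4) in the SE group (log2 fold change -0.12, standard error 0.31, unadjusted p = 0.710 in the same edgeR test).

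Small differences of 1 sign were common around Plk2. Of the 15 other tested regions 13 were lower in SE rats, with a median log2 fold change of -0.14, and 0 of these 15 had an unadjusted p below 0.05 (edgeR quasi-likelihood test). In the remainder of chromosome 2 the median was -0.08 and 41.8% of 22194 regions were higher in SE rats. The count of 13 of 15 was the same with library totals, upper-quartile, loess and density offsets in place of TMM. Leaving out single rats gave between 11 of 17 lower, without SE rat 9, and 13 of 16, without SE rat 8, and with all 10 libraries it was 7 of 14. SE rat 9 had the lowest summed tags of the 8 rats over this stretch, and its part in the direction was not tested beyond this.

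**Figure D2:**
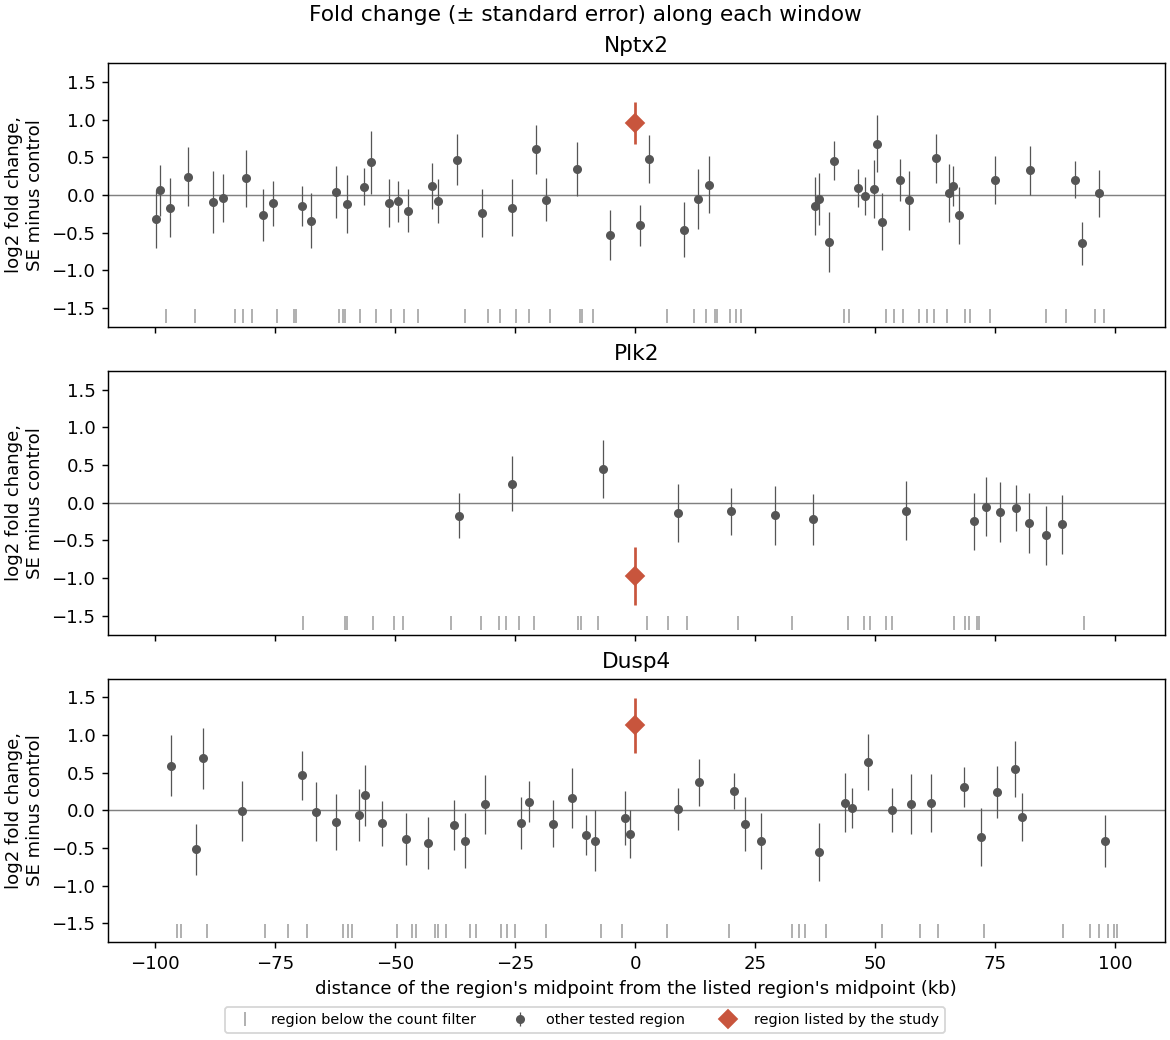
Log2 fold change of SE against control rats (vertical axis) with its standard error for each tested region, by the distance of its midpoint from that of the listed region (horizontal axis, kb), with ticks at the bottom for regions below the count filter. The listed regions, at 0.95 for Nptx2, 1.13 for Dusp4 and -0.97 for Plk2, were chosen by the study for this contrast. They stand beyond all other tested regions, which were not so chosen and lie between -0.64 and 0.69.

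Taking the 3 stretches as a whole, 0 of the 108 tested regions outside the listed ones passed p below 0.01 without adjustment in the quasi-likelihood test of edgeR, where 1.65% of all tested regions did. With so few regions, this count does not set them apart from the table. An unadjusted p below 0.05 was found in 1 of the 108 regions, the one at the far end of the Nptx2 stretch, against 6.90% of all tested regions. The exact test of edgeR and the DESeq2 Wald test also called 0 of these regions at p below 0.01, and at p below 0.05 they called 1 and 0. Adjusted p lay between 0.675 and 1.00. Of the 108 regions 45 were higher and 63 lower in SE rats, with a median log2 fold change of -0.07. That is 41.7% higher, against 50.3% of all tested regions, a difference that was not tested. With all 10 libraries 64 of 111 were higher and the median was 0.07. Log2 fold changes ran from -0.64 to 0.69, with a median absolute value of 0.20 and a median standard error of 0.35.

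A gap between the 2 groups of rats was found for 1 of the 108 regions, compared with 3.63% of all tested regions (1.69% with SE rats higher and 1.94% with SE rats lower). This region, picked out here after its values were seen, lies 50.4 kb from the listed region of Nptx2, from 10409846 to 10410307. Control rats 1, 3, 4 and 5 had 6, 5, 8 and 12 tags and SE rats 6, 8, 9 and 10 had 11, 11, 12 and 19. The group means were 1.81 ± 0.571 CPM (SD, n = 4) in the control group and 2.93 ± 0.491 (SD, n = 4) in the SE group, a log2 fold change of 0.68 (standard error 0.38, unadjusted p = 0.0734, edgeR quasi-likelihood test). The highest control rat, at 2.48 CPM, and the lowest SE rat, at 2.54 CPM, were almost equal. Control rat 2, at 1.76 CPM, and SE rat 7, at 1.86 CPM, both fell within the control range.

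**Figure D3:**
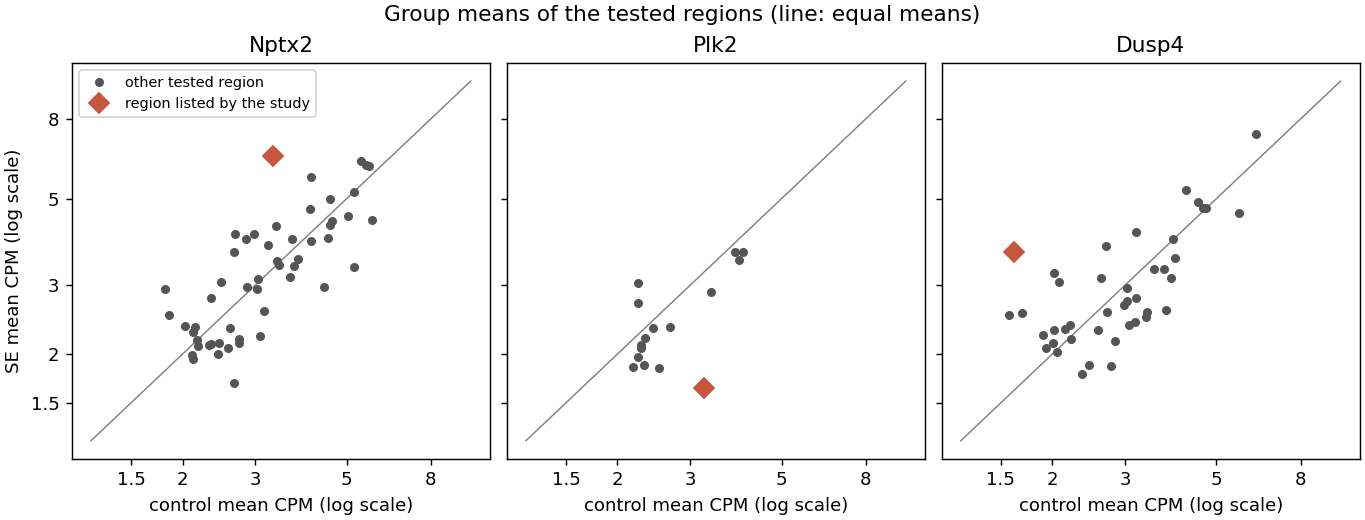
Mean CPM of the 4 SE rats (vertical axis) against that of the 4 control rats (horizontal axis, both logarithmic) for each tested region, with the line of equal means. The listed regions of Nptx2 (3.31 and 6.42) and Dusp4 (1.61 and 3.64) lie above the line and that of Plk2 (3.25 and 1.64) below it, with the other regions along it.

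Regions were also grouped by the distance of their midpoint from that of the listed region, over the 3 stretches together, and the classes were not tested against each other. Within 10 kb, 3 of 9 tested regions were higher in SE rats, with a median log2 fold change of -0.14. Between 10 and 50 kb this held for 17 of 43 regions with a median of -0.08, and beyond 50 kb for 25 of 56 with a median of -0.05. The stretches differed. Within 10 kb the median was -0.41 over 3 regions at Nptx2, -0.21 over 4 at Dusp4 and 0.16 over 2 at Plk2. Beyond 50 kb, 15 of 29 regions were higher in SE rats at Nptx2, 10 of 19 at Dusp4 and 0 of 8 at Plk2. Regions with a midpoint within 5 kb of the listed region's midpoint were also summed, without the listed one. Counts per 1000000 tags of the library total were 6.23 ± 1.55 (SD, n = 4) in the control group and 6.12 ± 2.24 (SD, n = 4) in the SE group at Nptx2. They were 5.76 ± 1.13 and 5.27 ± 1.11 (SD, n = 4 each) at Dusp4. These local sums hold 2 and 3 regions, and at Plk2 only 1 region lay within 5 kb.

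Over the full stretches the sums of all counted tags without the listed region were compared next. For Nptx2 the sum over the other regions was 185, 178, 160 and 180 counts per 1000000 tags of the library total in control rats 1, 3, 4 and 5, and 169.6, 168, 179 and 189.7 in SE rats 6, 8, 9 and 10. The means were 176 ± 11.03 (SD, n = 4) and 177 ± 9.93 (SD, n = 4), a log2 ratio of 0.01. For Dusp4 the sum over 80 regions lay between 121 and 141 in control and between 122 and 136 in SE rats, with means of 129 ± 8.77 (SD, n = 4) and 129.7 ± 5.71 (SD, n = 4) and a log2 ratio of 0.0046. For Plk2 the sum over 46 regions was 61.6, 59.8, 61.3 and 60.8 in control rats 1, 3, 4 and 5 and 62.1, 60.7, 53.4 and 57.1 in SE rats 6, 8, 9 and 10. SE rats 9 and 10 lay below all control rats and SE rat 6 above them, with means of 60.9 ± 0.793 (SD, n = 4) and 58.3 ± 3.89 (SD, n = 4) and a log2 ratio of -0.06. At Nptx2 and Dusp4 the difference of the means was smaller than the SD of either group. At Plk2 it was -2.54, smaller than the SD of the SE rats but larger than that of the control rats. SE rat 7 had the highest sum of all 10 libraries in each stretch, at 213, 149 and 66.2 for Nptx2, Dusp4 and Plk2.

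**Figure D4:**
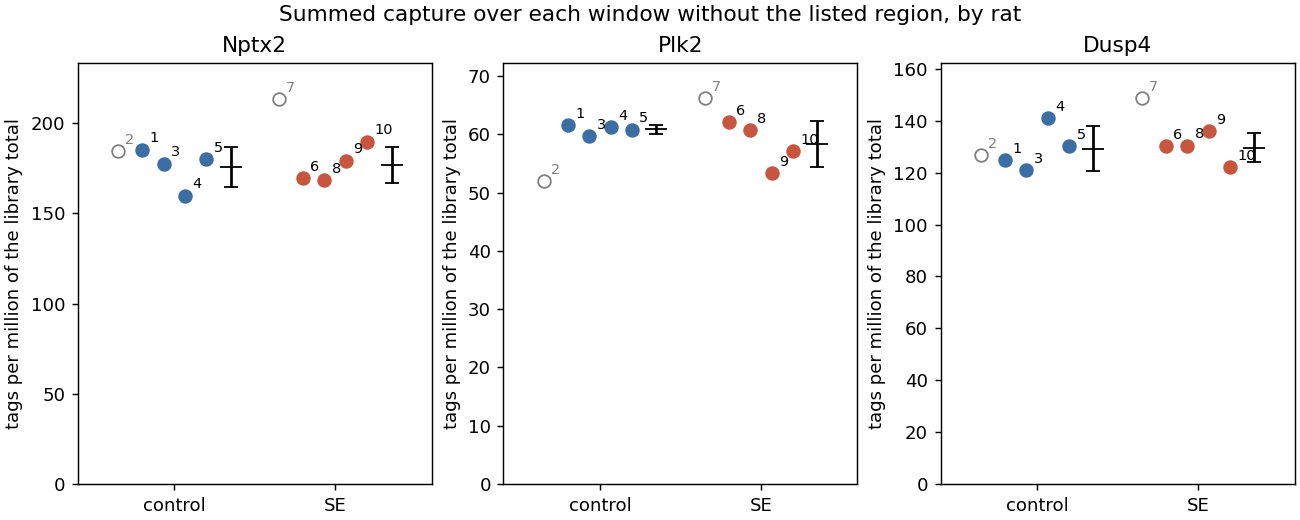
Counts per 1000000 tags of the library total in the regions of the table (vertical axis) summed over all regions within 100 kb of the listed region, without that region, for each rat, with the mean and SD of the 4 rats per group and the rats labelled discarded as open circles. Control and SE means are 176 and 177 for Nptx2, 60.9 and 58.3 for Plk2 and 129 and 129.7 for Dusp4.

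The share of the listed region in all tags of its stretch gives the same comparison within each library. At Nptx2 it ranged from 0.816% to 1.57% in control and from 1.94% to 3.17% in SE rats. At Dusp4 it ranged from 0.513% to 1.34% in control and from 1.78% to 2.24% in SE rats, and at Plk2 from 2.61% to 4.53% and from 0.806% to 2.76%. These shares, which do not depend on how libraries are scaled, left a gap between the groups at Nptx2 and Dusp4 and an overlap at Plk2. They rest on the same counts by which the study chose these regions, so they add no separate support. How often other regions show such a gap in share was not computed.

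Of the 119 regions below the count filter, 31 lay around Plk2, 39 around Dusp4 and 49 around Nptx2. When the filter was left out, 2 regions of the 227 had an unadjusted p below 0.01, both around Plk2 and both higher in SE rats, against the direction of the listed region. In this way 3015 of 574542 regions of all chromosomes were called higher and 4918 lower. In the first, from 41742419 to 41742655, control rats 1, 3, 4 and 5 had 2, 1, 3 and 7 tags and SE rats 6, 8, 9 and 10 had 6, 12, 13 and 8. In the second, from 41818302 to 41818688, they had 4, 2, 5 and 3 tags and 7, 7, 13 and 9 tags. The groups overlapped between control rat 5 and SE rat 6 in the first and did not overlap in the second. Other regions below the filter also left a gap. Around Dusp4 these included one from 61042269 to 61042656 with SE rats higher and one from 61071268 to 61071589 with SE rats lower. The share of such gaps over all regions without the filter was not computed. The 2 called regions around Plk2 had log2 fold changes of 1.50 and 1.27, with adjusted p of 0.665 and 0.720 in edgeR's quasi-likelihood test. SE rat 7 had 24 and 23 tags in these 2 regions, of its 14655629 tags in all regions of the table.

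**Figure D5:**
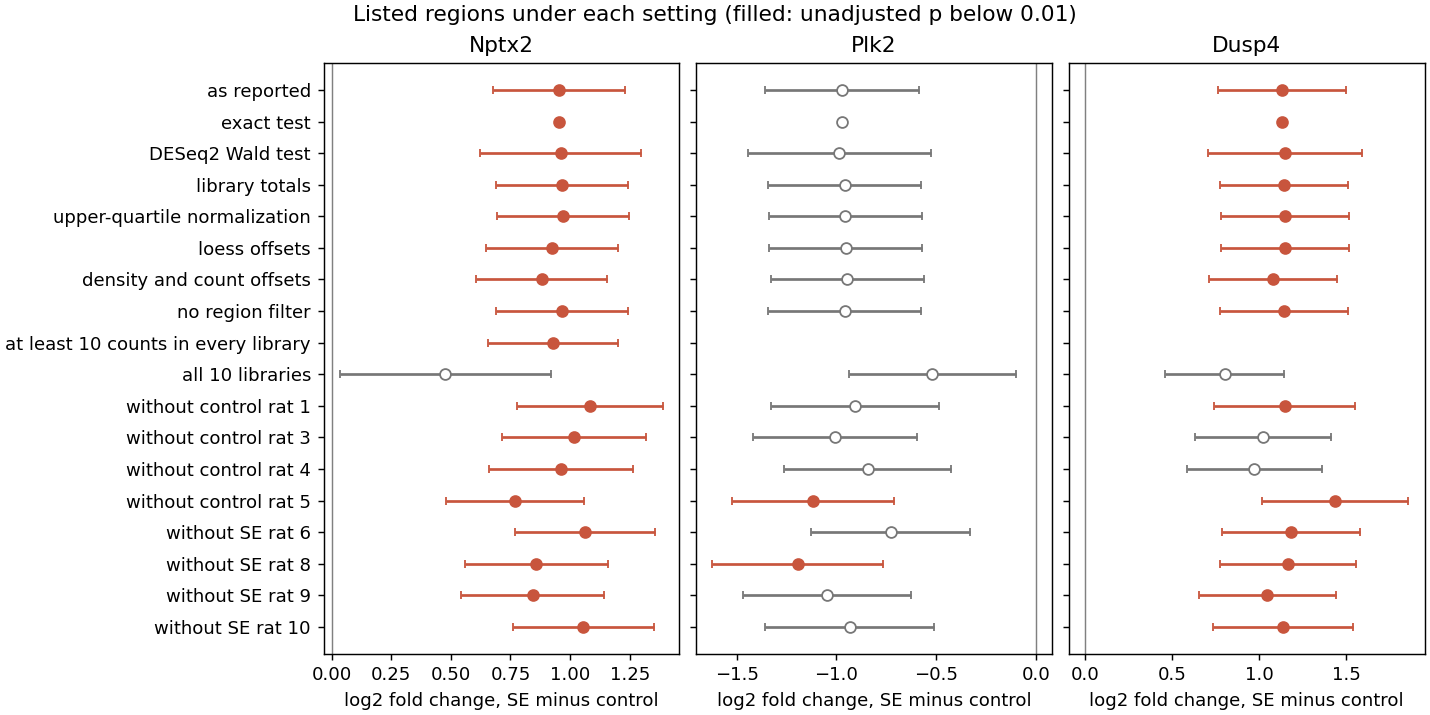
Log2 fold change with its standard error (horizontal axis) of each listed region under the processing as reported and each alternative (vertical axis), filled where the unadjusted p was below 0.01, the exact test giving no standard error and a missing point standing for a region not tested. No point changes sign, and the points with all 10 libraries, at 0.48, -0.52 and 0.80 for Nptx2, Plk2 and Dusp4, are open in each panel.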

How the data were processed

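Methylated DNA was captured with MethylMiner from 2000 ng of hippocampal DNA per rat and sequenced as single 36 bp reads. The labels' processing notes name BWA, MACS and bedtools with the build rn4. According to the study's methods, regions were those that MACS found to differ between any pair of samples, merged into a common set, and duplicate reads were removed. The deposited table holds raw counts of tags per region for 10 rats, as the authors counted them with a script. The regions were therefore preselected for differing between some samples, and stretches that no pair of samples distinguished hold no region and no value.

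Rats were grouped by the labels, and 4 control and 4 SE rats were compared. Each rat is a separate animal. Library totals, summed over the regions of the table, ran from 5499370 to 7179519 tags in the 8 libraries, and the common dispersion was 0.0336. Over the tested regions, libraries differed by more than sampling noise, with a chi-square per degree of freedom of 1.27 in the closest pair, control rat 1 and SE rat 6. Since the regions were preselected for differing between some samples, this value does not measure the noise between libraries in general. Regions with a summed count of at least 70, the 50th percentile, were tested across the whole table with edgeR 4.0.16 (R 4.3.3, TMM, quasi-likelihood test, two-sided), a call being an unadjusted p below 0.01, the cut of the study's region analyses, with Benjamini-Hochberg values beside it. The list that holds the 3 regions used a cut of 0.001, which was added as an alternative after seeing the data. CPM of the discarded rats come from a fit of all 10 libraries. The alternatives were the exact test, DESeq2 1.42.0, other scalings and filters, all 10 libraries, and each rat left out. In simulated counts for this comparison (291987 regions), 62 of 100 regions changed by 1 on the log2 scale and 99 of 100 changed by 2 were called at p below 0.01, as were 0.93% of unchanged regions. The counts were drawn from the model fitted here and the changed regions from the whole table. These rates therefore hold under that model and were not determined for the 3 stretches.

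The members, the named regions and the lists were chosen with earlier results of these data known. Named regions were the listed ones, the tested region next to each on either side, any other call, the smallest p in each direction and the highest mean count in each stretch. Sums over a stretch carry no p, since the stretches were chosen by the study's regions. No RN4 annotation was used here, so genes in the stretches other than those 3 were not analysed. Promoter sequences and motif counts came from RefSeq (GRCr8).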

Additional observations from a re-analysis of the deposited data

Results flagged for a closer look

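In the most heavily tagged region around Plk2, chr2:41816665-41817362, 1 rat in each group stood apart from its group. Control rat 4 was the highest at 5.95 CPM, with a gap of 0.849 of the group's range to the next rat, and SE rat 9 was the lowest at 1.45 CPM, with a gap of 0.885. Both gaps exceed the 95% critical value of Dixon's test for 4 samples. The other control rats had 3.21 to 3.63 CPM and the other SE rats 4.20 to 4.56 CPM. In 34 groups of 4 rats that were examined 2 passed this value, and chance passes about 1 in 20.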

How the results depend on the processing

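The listed region of Nptx2 kept its direction in 17 alternatives and stayed below p of 0.01 in 16 of them, with log2 fold changes of 0.767 to 1.083 when single rats were left out and 0.48 with all 10 libraries. That of Dusp4 kept its direction in 16 alternatives and its call in 13. It lost the call without control rat 3 (1.02), without control rat 4 (0.97) and with all 10 libraries (0.80), with a range of 0.97 to 1.44 over the rats left out. That of Plk2 passed only without control rat 5 (-1.12) and without SE rat 8 (-1.20), with a range of -1.20 to -0.73, and with all 10 libraries it was -0.52. At p below 0.001, a threshold added after seeing the data, the call of Nptx2 stayed and that of Dusp4 (1.13) was lost. With at least 10 counts in every library the Plk2 region was not tested, nor was that of Dusp4. Calls among the other regions numbered 2 without a filter and 0 to 1 when single rats were left out. The 1 call, among 106 regions tested, came without control rat 4 (chr12:10376564-10377034, log2 fold change -1.32). In that setting 1489 regions of the whole table were called higher and 2501 lower, of 291886 tested. With all 8 rats the region lay below the count filter and the groups overlapped. Control rat 4 held 3 tags there, against 13 to 16 in the other control rats and 2 to 8 in the SE rats. The other alternatives gave 0 calls. The log2 ratio of summed tags ran from -0.03 to 0.05 for Nptx2, -0.04 to 0.05 for Dusp4 and -0.09 to 0.0196 for Plk2, the last with all 10 libraries. Signs changed for 6 named regions. With all 10 libraries the value was 0.0729 for 61109381, -0.62 for 61119187, 0.25 for 10452012 and 0.26 for 41805712 (starts of the regions). Region 61119187 gave -0.0148 with loess offsets, -0.0479 with density offsets and -0.0106 with at least 10 counts. With single rats left out the ranges were -0.23 to 0.20 for 61119187 (below 0 without control rat 3, control rat 5 or SE rat 6), -0.0872 to 0.30 for 10405433 (below 0 without SE rat 8), -0.28 to 0.0484 for 41805712 (above 0 without SE rat 10) and -0.22 to 0.14 for 41816665 (above 0 without control rat 4 or SE rat 9). The cause of these changes was not tested. Over the whole table, 1704 regions were called higher and 3117 lower, against 3015 and 4918 without a filter, 406 and 1019 with DESeq2, 435 and 980 with at least 10 counts, and 811 and 618 with all 10 libraries. No paired analysis was possible because the 2 groups share no rat numbers. Counts of 2 to 45 tags per region and library limit what a single region can show.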
